A study of Schmidtea mediterranea with 6 samples.

Results

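Transcripts for cytosolic HSP70, HSP90 and the J-domain protein DNAJB1 were followed in Schmidtea mediterranea, a planarian flatworm known for regrowing any lost part of its body, while trunks regenerated. They comprised 5 of the 26558 transcripts in the table of normalised values, chosen by identifier: HSPA8 dresden_comp320_c0_seq1, HSPA8 dresden_comp1459_c0_seq1, HSPA8 dresden_comp1332_c0_seq1, HSP90AA1 dresden_comp678_c0_seq1 and DNAJB1 dresden_comp3588_c0_seq1, called comp320, comp1459, comp1332, comp678 and comp3588 from here on. The names come from gene tables of the study, since the table of values holds identifiers only, and all 5 stand in its list of folding transcripts raised in the libraries analysed here. Their direction is therefore no independent evidence. For comp320, comp678 and comp3588 a name is also given in tables made from other libraries, of stem cells sorted during starvation.

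The cct3A(RNAi) planarians had received double-stranded RNA (dsRNA) against cct3A, a subunit of the cytosolic chaperonin TRiC, and the gfp(RNAi) planarians dsRNA against gfp, a sequence that planarians lack. All animals were of the asexual strain, were described by the study as starved, had been cut before and behind the trunk, and were collected at 72 h of regeneration (72hR). Each group had 3 libraries of total RNA, and each library pooled 5 trunks. The dsRNA was injected into whole animals, with no cell type singled out. In such bulk RNA more cells of a type and more RNA per cell cannot be told apart. The labels name no separate cultures, so the spread behind each p-value is that between pools of trunks.

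HSP70 proteins bind short hydrophobic stretches of unfolded proteins and release them in a cycle driven by ATP. J-domain proteins such as DNAJB1 bring clients to HSP70 and speed up its ATP hydrolysis, and HSP90 takes over many clients at a later stage of folding, among them kinases and steroid receptors. TRiC closes around a different set of clients, with actin and tubulin as the best known, and some of these reach it through HSP70.

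cct3A was at 13.3, 13.4 and 14.0 normalised TPM (a transcript's relative abundance, corrected for transcript length and rescaled per library) in cct3A(RNAi) libraries, against 386.0, 387.3 and 402.8 in gfp(RNAi) libraries, as the labels require. The values of a library summed to between 1004959 and 1048445 in cct3A(RNAi) planarians and to between 959963 and 999939 in controls, so that all sums were higher after cct3A RNAi. Of 18062 transcripts tested with limma, 321 were higher and 445 lower at an adjusted p under 0.05. With all libraries rescaled to the same sum, 103 were higher and 1156 lower. Markers of planarian cell types were not analysed here, since no table used pairs their names with these identifiers.

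All 5 chaperone transcripts were higher in cct3A(RNAi) planarians. The 3 HSPA8 transcripts were higher by 37.4% to 41.8%, HSP90AA1 by 33.6% and DNAJB1 by 13.5%. All 5 passed the test, where 1.78% of all tested transcripts were called higher, and in all 5 every cct3A(RNAi) library lay above every control, as was the case for 15.8% of all tested transcripts. Their median log2 change was 0.46, against 0.0034 over all tested transcripts. All 5 stand in the study's list of transcripts raised in these libraries, so these comparisons with all tested transcripts are no independent evidence. Only 2 of the 5, HSPA8 comp1459 and HSP90AA1, passed in each of the 6 fits that left out 1 library.

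HSPA8 is the constitutive HSP70 of the cytosol in mammals, where it also strips clathrin from coated vesicles. HSPA8 comp320 was the most abundant of the 5, with 760.6, 703.5 and 717.8 normalised TPM in cct3A(RNAi) libraries and 509.4, 520.6 and 557.7 in controls. The groups lay well apart, with a gap of 145.8 TPM between the lowest cct3A(RNAi) library and the highest control. It averaged 727.3 ± 29.7 TPM in cct3A(RNAi) planarians and 529.3 ± 25.3 in controls (SD, n = 3 each), a log2 change of 0.46 (SE 0.048, 95% interval 0.35 to 0.57, limma adjusted p = 0.0106). In the fit that left out gfp(RNAi) replicate 1 the adjusted p was 0.0611, and in that leaving out gfp(RNAi) replicate 2 it was 0.0644, so the call was lost in both. Its place among all transcripts, ordered by level within a library, was 210, 214 and 221 after cct3A RNAi and 275, 265 and 261 in controls.

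HSPA8 comp1459 was at 353.9, 332.9 and 348.2 TPM in cct3A(RNAi) libraries and at 253.4, 243.5 and 239.2 in controls. Both groups were narrow, and the lowest cct3A(RNAi) library exceeded the highest control by 79.5 TPM. The means were 345.0 ± 10.8 TPM in cct3A(RNAi) planarians and 245.4 ± 7.28 TPM in controls (SD, n = 3 each), with a log2 change of 0.49 (SE 0.038, 95% interval 0.40 to 0.58, adjusted p = 0.00382).

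HSPA8 comp1332 had 222.1, 203.0 and 199.3 TPM in cct3A(RNAi) libraries and 148.3, 142.3 and 149.8 in controls. Replicate 1 stood above the other cct3A(RNAi) libraries, and the controls were close together. The means were 208.1 ± 12.2 TPM after cct3A RNAi and 146.8 ± 3.98 in controls (SD, n = 3 each), a log2 change of 0.50 (SE 0.047, 95% interval 0.39 to 0.61, adjusted p = 0.00687). This call missed the threshold without gfp(RNAi) replicate 1 (adjusted p = 0.0505). The log2 changes of the 3 HSPA8 transcripts lay within each other's intervals.

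HSP90AA1 comp678 encodes a cytosolic HSP90, in mammals the heat-inducible form. It was at 288.5, 269.1 and 278.8 TPM in cct3A(RNAi) libraries and at 208.2, 207.9 and 209.9 in controls. The controls were nearly equal, with a coefficient of variation of 0.502%, against 3.48% in the cct3A(RNAi) libraries. The means of 278.8 ± 9.70 TPM in cct3A(RNAi) planarians and 208.7 ± 1.047 in controls (SD, n = 3 each) gave a log2 change of 0.42 (SE 0.034, 95% interval 0.34 to 0.50, adjusted p = 0.00409). It passed without each library in turn, with adjusted p up to 0.0400.

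DNAJB1 comp3588, the J-domain partner of HSP70, was the lowest of the 5. It had 41.0, 40.5 and 39.7 TPM in cct3A(RNAi) libraries and 36.2, 35.2 and 35.4 in controls. The groups did not overlap, although only 3.51 TPM separated them. Its means were 40.4 ± 0.681 TPM after cct3A RNAi and 35.6 ± 0.496 in controls (SD, n = 3 each), and its log2 change was 0.18 (SE 0.032, 95% interval 0.11 to 0.25, adjusted p = 0.0350). This was the largest adjusted p of the 5. DNAJB1 passed in 0 of the 6 fits that left out 1 library (adjusted p = 0.0646 to 0.128), and did not pass with a common library sum, where the log2 change was 0.11 (adjusted p = 0.157).

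**Figure D1:**
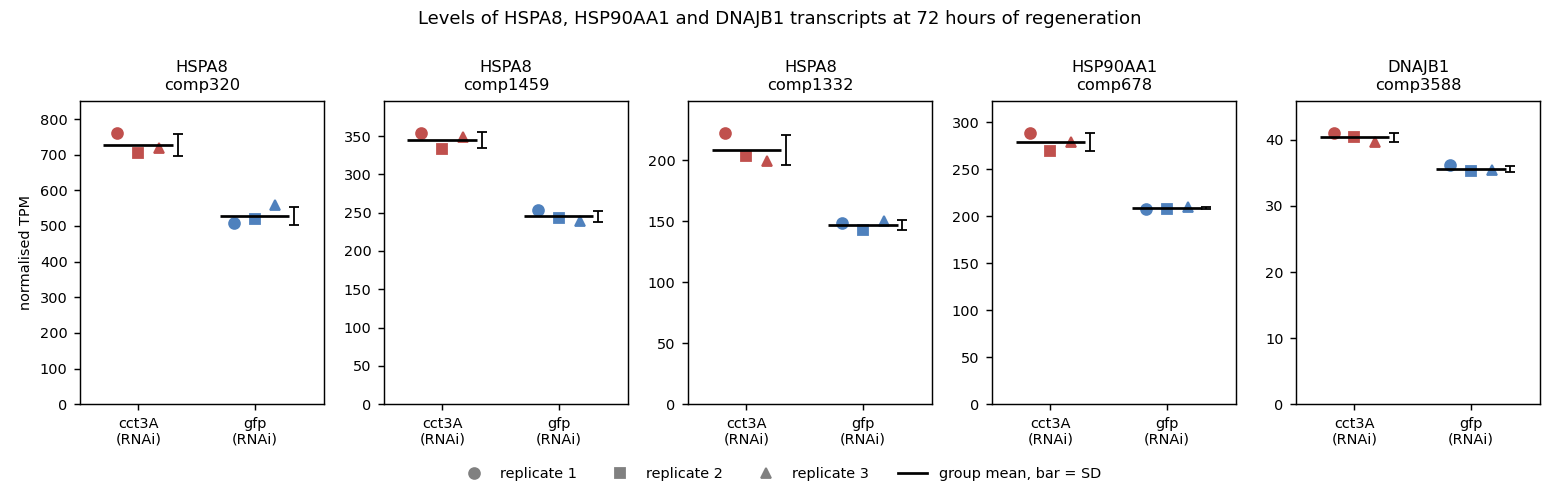
Normalised TPM (vertical axes, each from 0) of the 5 transcripts in the 3 cct3A(RNAi) libraries (red) and the 3 gfp(RNAi) libraries (blue), with marker shapes for the replicate number, lines for group means and bars for the SD. In each panel all red points lie above all blue points, with the smallest relative step in DNAJB1 (40.4 against 35.6 TPM).

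Since TPM is corrected for length, levels can be set against each other. The order comp320, comp1459, HSP90AA1 comp678, comp1332 and DNAJB1 held in both groups, and no neighbours in it overlapped within a group. In the cct3A(RNAi) planarians replicate 1 was the highest library for 5 of the 5 transcripts, whereas replicate 2 was the lowest for 3 and replicate 3 for 2. In the controls replicate 3 was the highest for 3 and replicate 1 for 2.

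**Figure D2:**
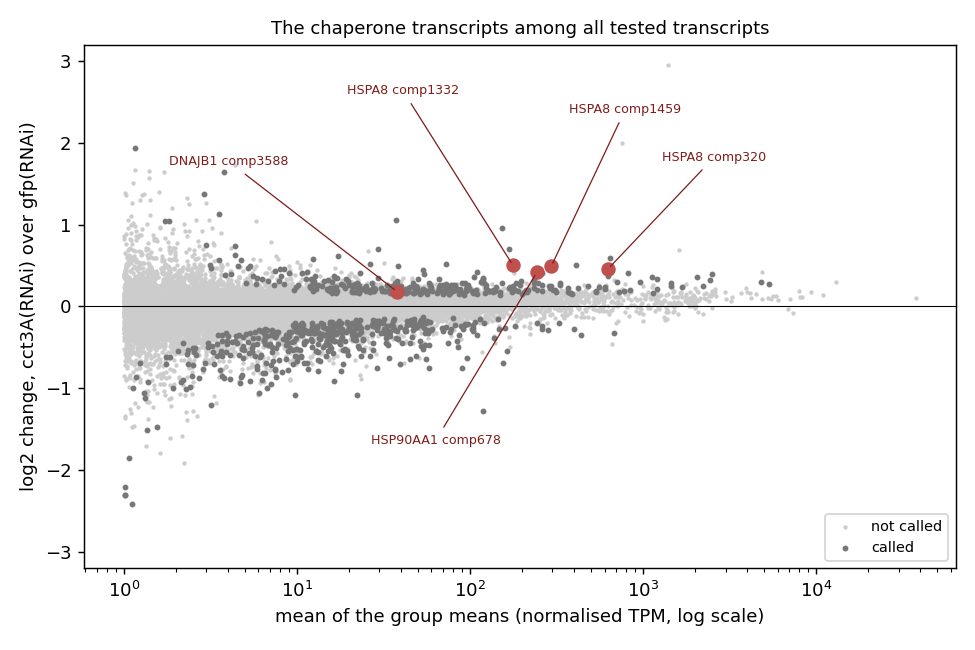
Log2 change, cct3A(RNAi) over gfp(RNAi), against the mean of the group means (normalised TPM, log axis) for all tested transcripts, with called transcripts in dark grey and the 5 chaperone transcripts in red. HSP90AA1 and the 3 HSPA8 transcripts sit between 0.42 and 0.50, and DNAJB1 lies at 0.18. The 1 point outside the axis is cct3A.

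The HSPA8 transcripts together reached 1337, 1239 and 1265 TPM in cct3A(RNAi) libraries and 911.1, 906.4 and 946.7 TPM in controls. The sum averaged 1280 ± 50.3 TPM after cct3A RNAi and 921.4 ± 22.0 TPM in controls (SD, n = 3 each), 39.0% higher, with a log2 difference of 0.47 (SE 0.038). With all libraries brought to the same sum this difference was 0.40. As a share of all values in a library, HSPA8 made up 0.125% ± 0.0049 in cct3A(RNAi) planarians and 0.0946% ± 0.00013 in controls (SD, n = 3 each). No p is given for the sum, since its members were chosen with earlier results of these data known. Of the gain of 359 TPM, comp320 provided 198.0 TPM (55.2%), comp1459 99.6 TPM (27.8%) and comp1332 61.3 TPM (17.1%).

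The question of whether a single copy took over was addressed with the share of each transcript in the HSPA8 sum, where any scale factor of a library cancels. comp320 held 56.9%, 56.8% and 56.7% in cct3A(RNAi) libraries and 55.9%, 57.4% and 58.9% in controls. The shares overlapped, and the means of 56.8% ± 0.094 in cct3A(RNAi) planarians and 57.4% ± 1.5 in controls (SD, n = 3 each) differed by -0.62 percentage points (SE 0.868, exact two-sided permutation p = 0.70, adjusted p = 0.88 over the 10 permutation tests of shares and ratios). comp1459 held 26.5%, 26.9% and 27.5% in cct3A(RNAi) libraries against 27.8%, 26.9% and 25.3% in controls. It differed by 0.30 percentage points (SE 0.802, exact p = 0.90, adjusted p = 1). comp1332 held 16.6%, 16.4% and 15.7% in cct3A(RNAi) libraries against 16.3%, 15.7% and 15.8% in controls, a difference of 0.32 percentage points (SE 0.313, exact p = 0.30, adjusted p = 0.43). Thus all 3 shares overlapped between groups, and no shift was detectable with 3 libraries a group. The smallest p that these tests could give was 0.10, so a shift of any size would have missed 0.05. Without gfp(RNAi) replicate 3 the differences of comp320 and comp1459 turned to 0.12 and -0.39 percentage points. The level of comp320 was 2.11 times that of comp1459 in cct3A(RNAi) planarians and 2.16 times in controls. Against comp1332 it was 3.50 times in cct3A(RNAi) planarians and 3.61 times in controls. Related HSP70 sequences can share reads, which kallisto divides among them, so the split between copies is less certain than the sum.

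**Figure D3:**
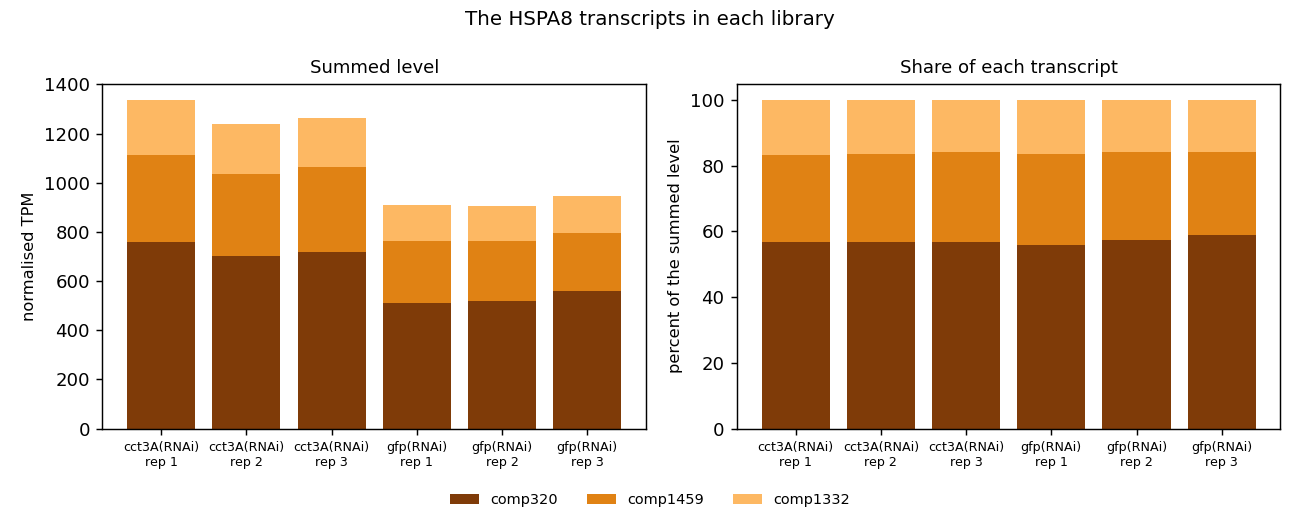
Stacked bars of the 3 HSPA8 transcripts in each library, as normalised TPM (left) and as percent of their sum (right), cct3A(RNAi) libraries before gfp(RNAi) libraries. The summed level is at least 1239 TPM in each cct3A(RNAi) library and at most 946.7 TPM in each control, while comp320 holds between 55.9% and 58.9% throughout.

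A further 2 transcripts of the study's tables carry the name HSPA8. dresden_comp2221_c0_seq1 had 43.5, 45.4 and 45.3 TPM in cct3A(RNAi) libraries and 41.0, 39.2 and 40.5 in controls, which gave a log2 change of 0.15, short of the threshold (adjusted p = 0.0563). dresden_comp19414_c0_seq1 was rare, at 3.12 ± 0.334 TPM after cct3A RNAi and 2.47 ± 0.391 in controls (SD, n = 3 each), with a log2 change of 0.29 (adjusted p = 0.196). Of the sum of all 5 HSPA8 transcripts, dresden_comp2221_c0_seq1 held 3.37% ± 0.198 in cct3A(RNAi) planarians and 4.18% ± 0.108 in controls (SD, n = 3 each), without overlap. This share was not tested.

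The balance of HSP70 to HSP90 was first taken against HSP90AA1 comp678, the less abundant of the HSP90AA1 transcripts. The ratio of summed HSPA8 to HSP90AA1 comp678 was 4.63, 4.61 and 4.54 in cct3A(RNAi) libraries and 4.38, 4.36 and 4.51 in controls. The lowest cct3A(RNAi) library and the highest control lay close, at 4.54 and 4.51, and the groups did not overlap. The log2 difference was 0.057 (SE 0.018), and the exact permutation test gave p = 0.10 (adjusted p = 0.17). No smaller p is possible with 3 libraries in each group. The same ratio overlapped between groups when all 5 HSPA8 transcripts were summed (log2 difference 0.044) or comp320 was taken alone (0.041).

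The ratios of HSPA8 and of comp678 to the co-chaperone were higher. HSPA8 was 32.6, 30.6 and 31.9 times as abundant as DNAJB1 in cct3A(RNAi) libraries and 25.2, 25.7 and 26.7 times in controls. This was a log2 difference of 0.29 (SE 0.036, exact p = 0.10, adjusted p = 0.17), with no overlap. The ratio of HSP90AA1 comp678 to DNAJB1 was 7.03, 6.64 and 7.03 in cct3A(RNAi) libraries and 5.75, 5.90 and 5.92 in controls, a log2 difference of 0.24 (SE 0.030, exact p = 0.10, adjusted p = 0.17). Both ratios are free of the scaling of libraries, and neither test could have reached a smaller p. Members and tests were chosen with earlier results of these data known. The p-values of these ratios, and of HSPA8 to comp678, are therefore no independent evidence. With both HSP90AA1 transcripts (comp678 and dresden_comp56_c0_seq1, described next) summed, HSP90 was 51.8 ± 1.86 times DNAJB1 in cct3A(RNAi) planarians and 49.0 ± 1.29 times in controls (SD, n = 3 each). That ratio overlapped between groups, with a log2 difference of 0.078 (SE 0.037). Left-out libraries moved the log2 differences of the first ratios between 0.27 and 0.32 for HSPA8 and between 0.22 and 0.26 for HSP90AA1 comp678.

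**Figure D4:**
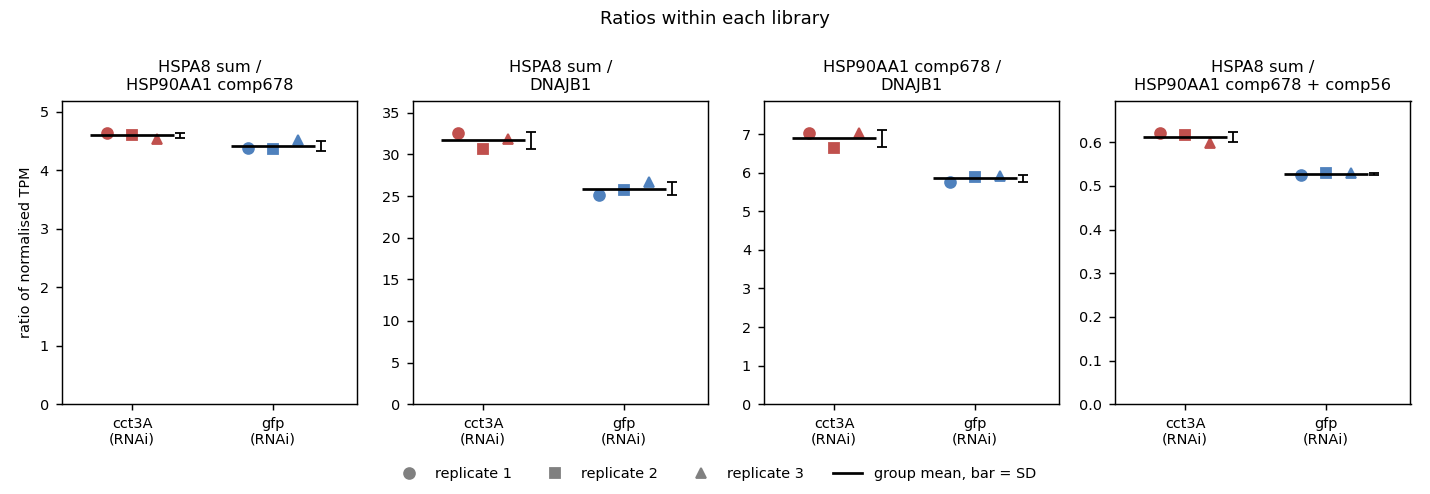
Ratios of normalised TPM within each library (vertical axes from 0), cct3A(RNAi) in red and gfp(RNAi) in blue, with lines for group means and bars for the SD. The ratio of HSPA8 to HSP90AA1 comp678 is nearly level (4.59 against 4.42). The ratios of HSPA8 and of comp678 to DNAJB1, and that of HSPA8 to both HSP90AA1 transcripts, stand apart. Not drawn is the ratio of both HSP90AA1 transcripts to DNAJB1, which overlapped between groups (51.8 against 49.0).

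A more abundant transcript also named HSP90AA1, dresden_comp56_c0_seq1, was typed as HSP60 in the same table of the study, so its family is uncertain. It had 1863, 1742 and 1833 TPM in cct3A(RNAi) libraries and 1527, 1505 and 1578 in controls. Its log2 change was 0.24 (SE 0.044, adjusted p = 0.0383), a call that held in 1 of the 6 fits without 1 library, that without cct3A(RNAi) replicate 2 (adjusted p = 0.0485), with adjusted p up to 0.132 in the others. comp678 was at 0.154 ± 0.0015 of its level in cct3A(RNAi) planarians and at 0.136 ± 0.0026 in controls (SD, n = 3 each), a log2 difference of 0.18 (SE 0.018, exact p = 0.10, adjusted p = 0.17). With both HSP90AA1 transcripts summed, HSPA8 stood at 0.612 ± 0.0115 of HSP90 after cct3A RNAi and at 0.528 ± 0.0025 in controls (SD, n = 3 each), a log2 difference of 0.21 (SE 0.016) without overlap. The sizes of the differences of HSP90 to HSPA8 and to DNAJB1 thus depended on which HSP90AA1 transcripts were counted.

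The other cytosolic HSP70 and HSP90 transcripts and their cofactors, 10 in all including those above, mostly lay above 0. Of these, 3 were called higher and 0 lower, against 1.78% and 2.46% of all tested transcripts. In 9 of the 10 the log2 change was above 0, as in 9192 of all 18062 tested, and the median was 0.16, against 0.0034 over all. In 8 of the 10 every cct3A(RNAi) library was above every control, against 15.8% of all tested transcripts. The 3 calls, HSP90AA1 dresden_comp56_c0_seq1, HSPA4L and CHORDC1, were among the 7 that the study had listed as raised in these libraries. Of the 3 outside that list 0 were called with limma, and 0 had an unadjusted p under 0.05. The median log2 change of these 3 was 0.10, 2 lay above 0, and in 1 every cct3A(RNAi) library was above every control. That was so for all 7 on the list. The counts and the median over the 10 are therefore no independent evidence.

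HSPA4L dresden_comp1087_c0_seq1, of the HSP110 branch of the HSP70 family, which exchanges the nucleotide of HSP70, had 105.0, 100.1 and 98.9 TPM in cct3A(RNAi) libraries and 88.6, 86.6 and 91.4 in controls. Its log2 change was 0.19 (adjusted p = 0.0422), and it passed in none of the fits without 1 library (adjusted p up to 0.134), nor after rescaling to the same sum (0.104). CHORDC1 dresden_comp1390_c0_seq1, a co-chaperone that binds HSP90, had 142.95, 130.3 and 127.7 TPM in cct3A(RNAi) libraries and 103.5, 111.4 and 112.8 in controls. Its log2 change was 0.29 (adjusted p = 0.0383), likewise lost without each library in turn (up to 0.117) and after rescaling (0.0532).

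DNAJA4 dresden_comp147_c0_seq1, another J-domain protein, was far more abundant than DNAJB1. It had 1627, 1526 and 1627 TPM in cct3A(RNAi) libraries and 1400, 1375 and 1447 TPM in controls, and its log2 change of 0.18 missed the threshold (adjusted p = 0.0629). Its level was 39.4 ± 1.67 times that of DNAJB1 in cct3A(RNAi) planarians and 39.5 ± 1.14 times in controls (SD, n = 3 each). The ratio of DNAJB1 to DNAJA4 overlapped between groups, with a log2 difference of 0.0033 (SE 0.043, exact p = 1). ST13 dresden_comp668_c0_seq1, which binds HSP70 and slows the release of its nucleotide, was at 0.12 (adjusted p = 0.0834). FKBP4 dresden_comp1921_c0_seq1, an HSP90 cofactor of steroid receptors, was at 0.11 (adjusted p = 0.121). The transcripts of DNAJC7, which binds both HSP70 and HSP90, were at 0.10 (dresden_comp1811_c0_seq1, adjusted p = 0.217) and -0.065 (dresden_comp13107_c0_seq1, adjusted p = 0.644), and both overlapped between groups.

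Relatives of the same families in the endoplasmic reticulum (ER) mostly lay on the other side of 0. Below it were 8 of 9, as were 8870 of all 18062 tested. Of 10 listed, 9 passed the filter on low values. Of these 3 were called lower, against 2.46% of all tested transcripts, 1 was called higher, and the median log2 change was -0.14. In 5 of the 9 every cct3A(RNAi) library was below every control, as was the case for 16.1% of all tested transcripts. The study had already reported bip-1 and other ER chaperones as lowered, and dnajb9 as raised, in these libraries. These counts are therefore no independent evidence. bip-1 dresden_comp511_c0_seq1, the HSP70 of the ER, had 234.7, 230.8 and 239.6 TPM in cct3A(RNAi) libraries against 282.9, 282.0 and 289.3 in controls. It fell by 0.28 on the log2 scale (adjusted p = 0.0116), a call lost without gfp(RNAi) replicate 1 (0.0694) or replicate 2 (0.0644). HSP90B1 dresden_comp758_c1_seq1, the HSP90 of the ER, had 168.4, 162.2 and 171.9 TPM in cct3A(RNAi) libraries against 203.8, 192.5 and 196.7 in controls. It fell by 0.24 (adjusted p = 0.0281), and passed in only 1 of the fits without 1 library, that without cct3A(RNAi) replicate 2 (0.0486, up to 0.0996 in the others).

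Summed HSPA8 was thus 5.70, 5.37 and 5.28 times bip-1 in cct3A(RNAi) libraries and 3.22, 3.21 and 3.27 times in controls. The log2 difference of 0.75 (SE 0.034, exact p = 0.10, adjusted p = 0.17) was the largest of the ratios computed between named chaperones. HSP90AA1 comp678 was 1.71, 1.66 and 1.62 times HSP90B1 in cct3A(RNAi) libraries and 1.02, 1.08 and 1.07 times in controls, a log2 difference of 0.66 (SE 0.034, exact p = 0.10, adjusted p = 0.17). These ratios, that of DNAJB1 to DNAJA4 and that between the HSP90AA1 transcripts were chosen after the values had been seen. HSPA8 and comp678 stand in the study's list of transcripts raised in these libraries, and the study reported bip-1 as lowered in them. The p-values of the ratios to bip-1 and to HSP90B1 are therefore no independent evidence. Nor are those of DNAJB1 to DNAJA4 and between the HSP90AA1 transcripts, since these transcripts also stand in that list.

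The called J-domain proteins of the ER were split. dnajc3, which inhibits a kinase of the ER stress response, had 27.4, 26.6 and 27.1 TPM in cct3A(RNAi) libraries and 30.3, 30.1 and 31.5 in controls. It fell by 0.18 on the log2 scale (adjusted p = 0.0434). dnajb9, which helps degrade misfolded ER proteins, had 92.96, 92.8 and 91.0 TPM in cct3A(RNAi) libraries and 75.5, 82.2 and 82.7 in controls, a log2 change of 0.20 (adjusted p = 0.0441). Both calls were lost without each library in turn (dnajc3 up to 0.126, dnajb9 up to 0.121). Another, dnajb11, was at -0.12 (adjusted p = 0.0903). Among the other ER relatives, bip-2 was at -0.056 and the nucleotide exchange factors Hyou1 and SIL1 were both at -0.14, with adjusted p from 0.0613 to 0.435. The bip-3 transcripts were near 1 TPM. dresden_comp19874_c0_seq1 was at -0.19 (adjusted p = 0.539), and dresden_comp23368_c0_seq1 was the 1 listed transcript below the filter.

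In mitochondria, 0 of 3 relatives were called with limma, where 1.78% of all tested transcripts were called higher. Of the 3, 2 were higher at an unadjusted p under 0.05, as were 2280 of all 18062 tested. In all 3 every cct3A(RNAi) library was above every control, as in 15.8% of all tested transcripts. Their median log2 change was 0.18, against 0.0034 over all tested transcripts. The mitochondrial HSP70 HSPA9 was at 0.19 (adjusted p = 0.0578), its J-domain partner DNAJA3 at 0.18 (adjusted p = 0.0574) and the HSP90 protein TRAP1 at 0.045 (adjusted p = 0.341). HSPA9 had 678.7 ± 25.0 TPM in cct3A(RNAi) planarians and 595.9 ± 23.3 in controls (SD, n = 3 each). TRAP1 turned to -0.030 after rescaling to the same sum.

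**Figure D5:**
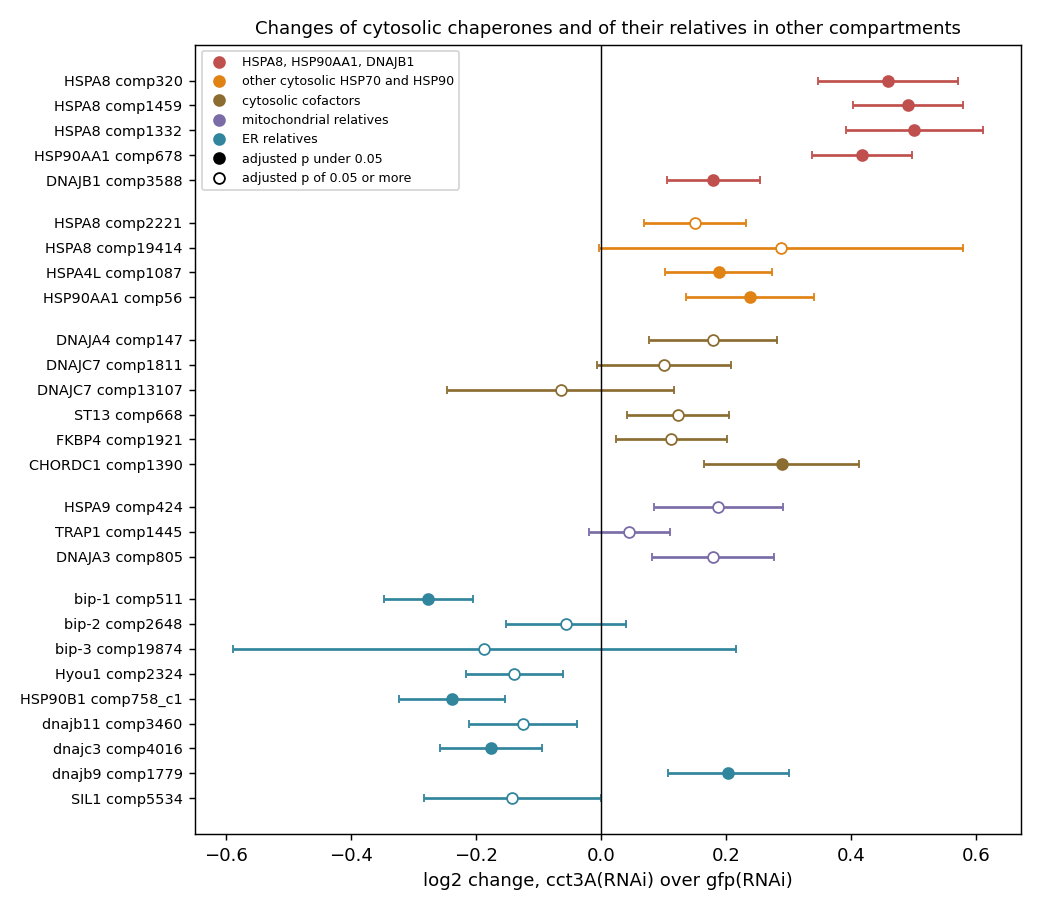
Log2 change, cct3A(RNAi) over gfp(RNAi) (horizontal axis, with 95% intervals), of the 5 chaperone transcripts in red and of their cytosolic, mitochondrial and ER relatives, filled where the adjusted p was under 0.05. HSP90AA1 comp678 and the 3 HSPA8 transcripts lie furthest to the right, DNAJB1 at 0.18 lies among the other cytosolic transcripts, and 8 of the 9 ER relatives are below 0.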

How the data were processed

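RNA was taken from pools of 5 trunks at 72hR, in 3 libraries per group, and sequenced after TruSeq preparation on an Illumina HiSeq2500. The authors pseudo-aligned reads to the Dresden transcriptome with kallisto (the submitters' processing notes give version 0.43.0). What they deposited is a signal, namely TPM that they had rescaled by 1 size factor for each library. They keep no counts, and the study's methods give reads only as a total over the libraries, so the depth of each library is unknown, no counting interval was computed, and precision was judged from the replicates. Groups and replicate numbers came from sample titles. The table held 0 columns of per-sample values without a library.

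Values were tested as log2(value + 0.5), which understates changes of low transcripts, over 18062 of 26558 transcripts with a mean of at least 1, with limma (version 3.58.1, R 4.3.3, eBayes with trend, two-sided) and Benjamini-Hochberg adjustment at 0.05. The test was planned for plain TPM and kept for rescaled TPM. Of the 10 exact two-sided permutation tests of shares and log2 ratios, 4 were added after the values had been seen, and their smallest possible p is 0.10. The SE of a ratio or sum is that of the difference of group means.

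Fits were repeated with each library left out, with a block for the replicate number, with robust eBayes or no trend, with a common library sum, quantile normalisation or median-of-ratios scaling, with a filter at 5 or none, and with pseudocounts of 0.1 or 1. The members, lists and tests were chosen with earlier results of these data known. Transcripts were named only from the fixed lists, plus the 3 tested transcripts (mean of at least 10) whose profile over 6 libraries was nearest to summed HSPA8 and the 3 nearest from the lists. Values from the authors' own comparisons were not used. Membership in their list of raised folding transcripts was used, for names and to divide the other cytosolic transcripts.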

Additional observations from a re-analysis of the deposited data

How the results depend on the processing

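Counts of called transcripts depended on the fit: 42 higher and 52 lower with no filter, 614 and 670 with a filter at 5, 103 and 1156 with a common sum, 9 and 24 without a variance trend, and 9 to 128 higher and 15 to 361 lower with 1 library left out. All 5 members were called in 6 of the 10 alternative fits to all libraries. HSPA8 comp320 kept its log2 change of 0.46 but missed the threshold with no filter (limma adjusted p = 0.0567) and without trend (0.0536), as did comp1332 without trend (0.50, 0.0501). DNAJB1, at 0.18, was lost with no filter (0.0540), without trend (0.0898) and with a common sum (0.11, 0.157). Leaving out 1 library gave 0.43 to 0.50 for comp320, 0.47 to 0.52 for comp1459, 0.45 to 0.53 for comp1332, 0.39 to 0.44 for HSP90AA1 comp678, 0.17 to 0.19 for DNAJB1 and 0.44 to 0.50 for summed HSPA8, which was 0.40 with a common sum.

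Share differences ran from -1.38 to 0.12 points for comp320, -0.39 to 0.89 for comp1459 and 0.13 to 0.57 for comp1332, and the log2 difference of DNAJB1 to DNAJA4 from -0.029 to 0.032. That of HSPA8 to HSP90AA1 stayed between 0.047 and 0.072. Of the other cytosolic transcripts, 0 were called higher with no filter, quantile normalisation or no trend, 1 with a common sum, 5 with a filter at 5, and 0 to 1 with 1 library left out. ER relatives called higher were 0 with no filter, a common sum, quantile normalisation, no trend or 1 library left out. Those called lower were 1 with no filter, 5 with a common sum, 0 without trend and 0 to 2 with 1 library left out. With a filter at 5, 2 mitochondrial relatives were called. TRAP1 turned to -0.030 with a common sum. The causes were not tested.

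Same-numbered libraries correlated weakly in their deviations from the group means (r = 0.048, 0.10 and 0.047). Each of these was above the other pairings (r at most 0.0082). The labels state no pairing, so the main fit treated the samples as unpaired. Whether same-numbered samples share more than a number was not tested. With the replicate block 218 transcripts were higher and 442 lower, DNAJB1 kept its 0.18 but missed the threshold (0.0551), the other 4 members passed, and 1 other cytosolic, 0 ER and 1 mitochondrial relative were called higher. With 3 libraries a group and the depth of each unknown, small shifts in share or ratio could not be resolved.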

Other observations

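The transcripts whose profiles over the 6 libraries were most like that of summed HSPA8 were sought among the 9234 tested transcripts that averaged at least 10 TPM. Likeness was the root mean square difference of log2 levels, each taken relative to the mean of the controls. Such a distance depends on the size of the change between groups, so transcripts raised by a like amount come out near. The nearest was dresden_comp246_c0_seq1, named ACTB (an actin) in the study's list of raised folding transcripts, at a distance of 0.039. It averaged 483.0 TPM in cct3A(RNAi) planarians and 341.1 TPM in controls, a log2 change of 0.50 (limma adjusted p = 0.00378). The next were dresden_comp4112_c0_seq1 (0.057, with 62.0 TPM in cct3A(RNAi) planarians and 45.5 TPM in controls) and dresden_comp124_c0_seq1 (0.060, with 940.0 TPM in cct3A(RNAi) planarians and 705.4 TPM in controls), which no table used here names. Of the chaperones described above other than the 5, the nearest was CHORDC1, in place 54 (0.137), followed by HSP90AA1 dresden_comp56_c0_seq1 in place 131 (0.168) and dnajb9 in place 318 (0.197). These distances describe 6 libraries and were not tested.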
